A study of Homo sapiens with 9 samples.

Results

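The genes described here encode the adherens, tight and desmosomal junctions of epithelial cells, the simple keratins and the epithelial splicing regulators. They are 38 named genes out of the 60675 rows of the deposited count table, each found by its Ensembl identifier through GENCODE release 29. Of the 38, 35 passed the filter on low counts and were tested among 13264 genes in all. RNA was sequenced in 9 libraries of the established cell line HCC827, a human lung adenocarcinoma with an activating EGFR mutation. Cells in all groups stably carried a short hairpin RNA. NS is the non-silencing control, and G1 and G7 are 2 hairpins against CBX5, the gene of heterochromatin protein HP1 alpha. All groups were grown in DMEM with serum; the study's title concerns EGFR inhibitor resistance, but no inhibitor is named in the labels of these cells. Each group had 3 libraries, called biological replicates in the design text. The labels do not say whether they came from separate transductions, nor whether a line is a clone or a pool, so the p-values measure the spread between these libraries, which may be technical. CBX5 itself was at 369 ± 8.11 CPM in NS, 142 ± 0.595 CPM with G1 and 203 ± 1.54 CPM with G7 (mean ± SD, n = 3), where CPM is the usual per-library scaling of counts, here with TMM factors.

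Epithelial cells hold together through junctions stacked along their sides. Tight junctions lie nearest the apical surface, where claudins and occludin seal the gap between cells and scaffold proteins tie them to actin. Below them, adherens junctions pair E-cadherin on neighbouring cells and link it through catenins to actin, while desmosomes pair desmosomal cadherins and link them through plakoglobin, plakophilins and desmoplakin to keratin filaments. Simple keratins form filaments from a type I partner, such as KRT18 or KRT19, and a type II partner, such as KRT7 or KRT8. Glandular lung tumours commonly express this set, and it is often lost when epithelial cells take on mesenchymal features.

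Library totals ran from 12701561 to 22372353 counts, and mitochondrially encoded genes took 13.4% to 19.8% of them. G7 replicate 3 had the highest such share and stood apart from the other 2 G7 libraries, at 24.7 and 19.5 chi-square units per degree of freedom against 1.51 between those 2. The numbers of called genes below were little moved without that library, at 20 higher and 5 lower with G1, 9 and 5 with G7, and 18 and 6 between the hairpins. The epithelial label held in the data for CDH1, EPCAM, VIM, CDH2 and ZEB1, although some other genes of the mesenchymal and repressor lists were present. CDH1 and EPCAM had at least 336 and 285 CPM in every library, while the mesenchymal genes VIM and CDH2 reached at most 12 and 14 counts in any library. The repressor gene ZEB1 reached at most 4 counts. Other listed repressors were present, with TWIST2 at 199 to 368 counts per library, TCF4 at 139 to 205 and SNAI1 at 39 to 75. Of the mesenchymal list, S100A4 had 169 to 494 counts and COL1A1 had 189 to 307. The summed level of the mesenchymal list was 891 to 912 CPM in NS, 631 to 657 CPM with G1 and 740.4 to 781 CPM with G7. The list has 16 genes, of which 5 passed the filter. Nearly all of the sum was fibronectin (FN1), which an epithelial line can make. ACTA2, LUM and THY1 were listed at 0 in all 9 libraries. Exon overlaps of these 3 with other genes were not examined, so a 0 does not show absence. Leukocyte markers summed to 10.7 to 11.4, 5.90 to 6.82 and 9.60 to 10.7 CPM, with PTPRC, which encodes CD45, at no more than 11 counts. CD14 had 36 to 141 counts and CSF1R had 31 to 56. Endothelial markers summed to 84.2 to 92.8, 71.2 to 77.1 and 85.8 to 92.5 CPM, most of it PECAM1. CDH5 had 189 to 339 counts, while KDR, TEK and EMCN had no more than 2 and VWF no more than 11. The part of these RNAs in the results was not tested. In such bulk libraries, fewer cells of a type and less RNA per cell cannot be told apart.

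Levels of different genes were compared per kilobase of merged exons (RPKM, CPM divided by that length). The simple keratins were far above the junction genes in control cells. KRT18 was highest at 843 RPKM, followed by KRT19 at 702, KRT8 at 597 and KRT7 at 236, while the type II keratin KRT80 had 25.4. The control libraries of KRT18 (816, 838 and 874 RPKM) lay above those of KRT19 (694, 659 and 754). Those lay above KRT8 (597, 558 and 635), so these 3 did not overlap on this measure. Their order depends on the merged exon lengths used, 6881 bases for KRT8, 3218 for KRT18 and 2336 for KRT19. By CPM, KRT8 was highest in NS at 4106, against 2711 for KRT18 and 1640 for KRT19. Next came the adhesion molecule EPCAM at 118 RPKM, the splicing regulator ESRP1 at 88.3, p120 catenin (CTNND1) at 67.5, plakoglobin (JUP) at 65.8, desmoplakin (DSP) at 60.2 and E-cadherin (CDH1) at 56.8. CLDN4, at 40.9 RPKM, was the highest claudin in control cells, ahead of CLDN7 at 20.6. At the low end stood MARVELD3 at 1.53 RPKM and desmocollin 2 (DSC2) at 2.39. The 5 keratins took 65.0 to 67.5% of the counts of all 38 genes in NS, 71.5 to 71.8% with G1 and 69.1 to 70.5% with G7.

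Of the 3 genes that were not tested, CLDN2 and CLDN12 were listed at 0 counts in all 9 libraries and DSC3 had at most 10 counts in any. A 0 allows for up to 3 counts, equal to 0.139 to 0.227 CPM in these libraries, for counting error alone. The 0 of CLDN12 is uncertain, since its exons share bases on the same strand with GTPBP10 and CDK14.

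**Figure D1:**
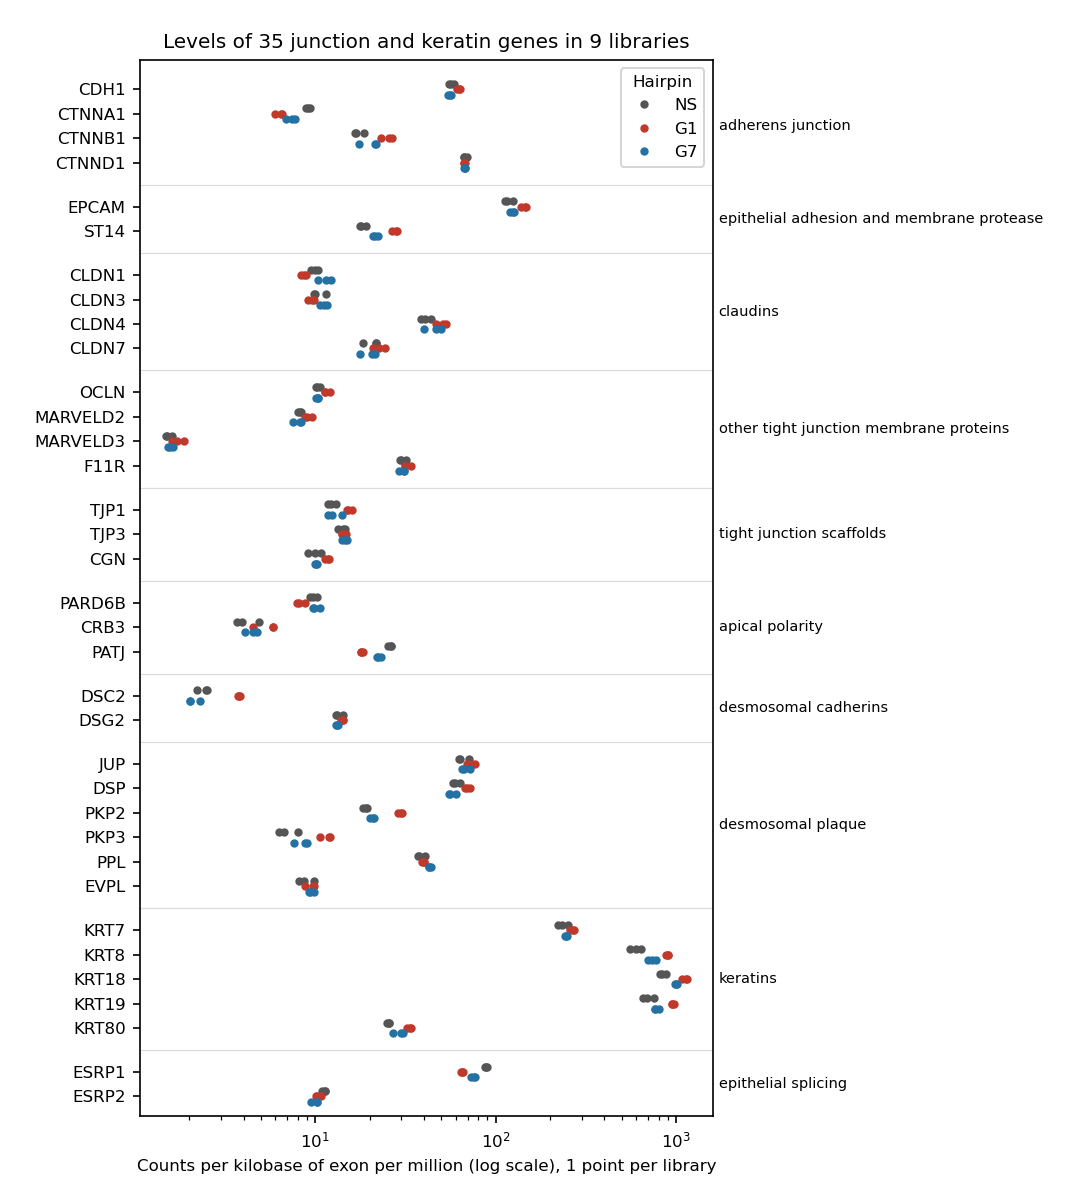
Level of each of the 35 tested genes, as RPKM on a log axis, with 1 point per library (NS grey, G1 red, G7 blue; 3 libraries each) and genes grouped by role. KRT18, KRT19, KRT8 and KRT7 lie above every junction gene, and MARVELD3 and DSC2 are lowest.

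Each hairpin was compared with NS to ask how these genes stood after loss of CBX5 RNA, and G1 was set against G7 because CBX5 stood at different levels in them. A gene was called at an adjusted p under 0.05 in edgeR's quasi-likelihood test. With G1, 25 of the 35 were called, 20 higher and 5 lower, against a background of 59.0% of all genes tested (30.3% higher and 28.8% lower). Upper quartile scaling gave 14 higher and 8 lower, and over all genes it turned 4016 higher and 3815 lower into 3060 and 4827. The median log2 change was 0.17 over the 35 and -0.01 over all genes. With G7, 13 were called, 9 higher and 4 lower, against 23.0% of all genes (13.3% and 9.76%). Upper quartile scaling gave 5 and 5, and 1415 higher and 1630 lower over all genes, where the main scaling gave 1762 and 1295. Between the hairpins, 24 were called, 17 higher with G1 and 7 lower, against 45.1% (23.3% and 21.7%); over all genes these were 3093 and 2884, or 2354 and 3764 with upper quartile scaling. Without G1 replicate 1, 4 were lower with G1 than with G7.

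The changes were small. The largest with G1 was 0.71 on the log2 scale, for plakophilin 3 (PKP3), and 8 genes passed 0.5 in either direction. No change with G7 was larger than the -0.31 of alpha-catenin (CTNNA1). The median absolute log2 change was 0.22 with G1 and 0.09 with G7, against 0.30 and 0.14 over all genes tested. Tested against a change of 1.2-fold in place of no change, edgeR's glmTreat called 9 higher and 3 lower with G1 and 0 in either direction with G7, where 0 also had an unadjusted p under 0.05. Of all 13264 genes, glmTreat called 1988 higher and 2129 lower with G1 and 175 and 138 with G7. Both comparisons use the same 3 control libraries. In the same direction with both hairpins, 7 genes were higher (11.7% of all genes) and 3 were lower (8.50%). The 7 were KRT8, KRT18, KRT19, KRT80, PKP2, PKP3 and ST14, and the 3 were CTNNA1, PATJ and ESRP1. CLDN1 was called in opposite directions (0.596% of all genes), and 8 genes were called with neither hairpin. The shares of all genes called with neither, or past 0.5 with G1, were not counted.

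**Figure D2:**
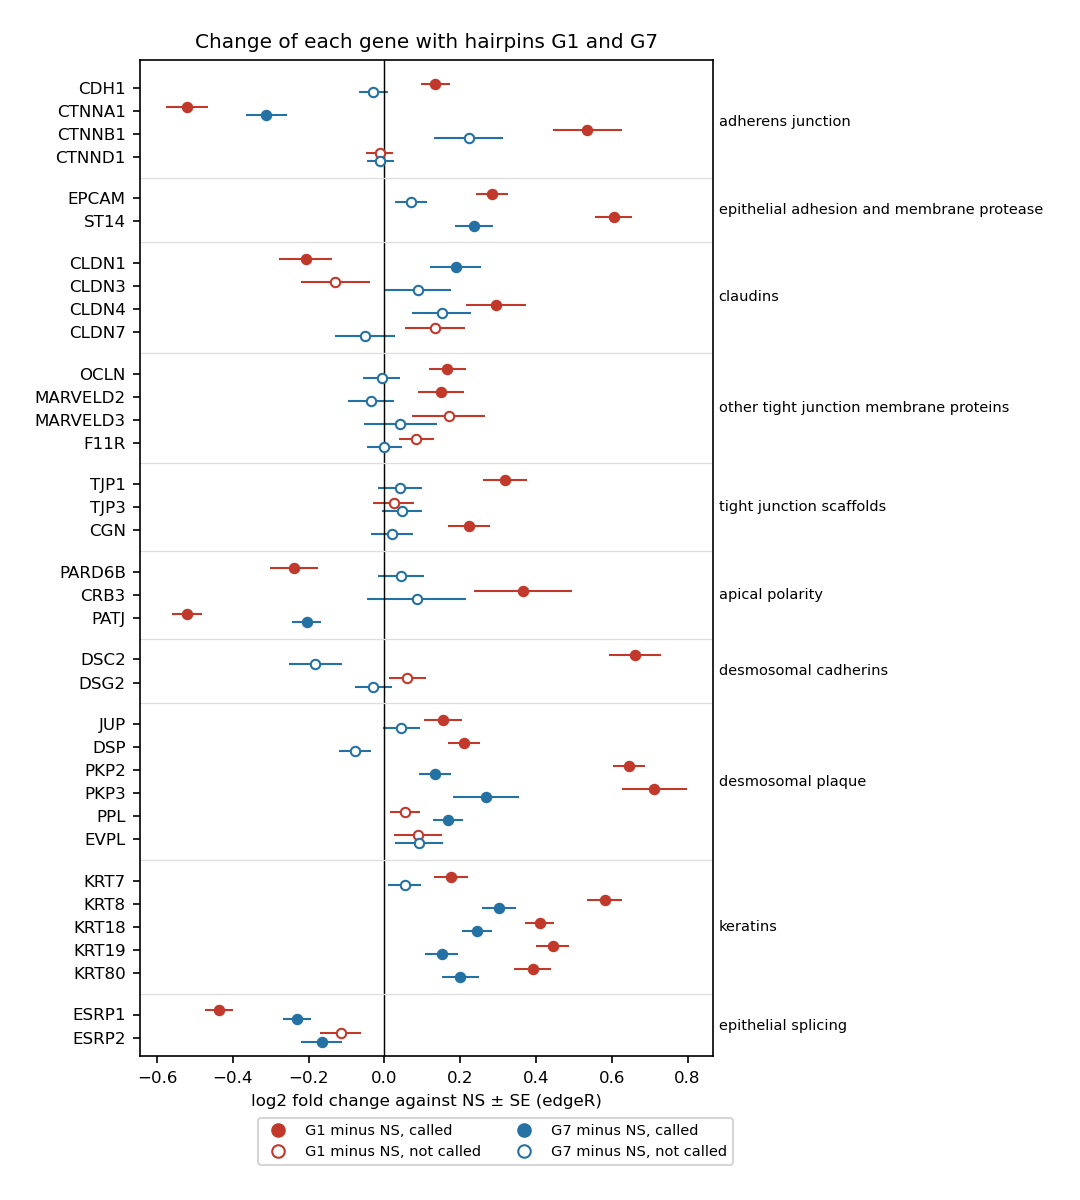
Log2 fold change against NS with its standard error for each of the 35 tested genes, with G1 in red and G7 in blue; filled points passed an adjusted p under 0.05. All 5 keratins lie to the right of 0 with both hairpins, CTNNA1, PATJ and ESRP1 lie to the left with both, and CLDN1 has a filled point on each side.

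Keratin RNA was higher with both hairpins. All 5 keratins rose with G1 and all but KRT7 rose with G7, by a median log2 change of 0.41 and 0.20. The shares of all genes tested that were higher were 30.3% with G1 and 13.3% with G7. KRT8 (ENSG00000170421, chromosome 12, 52897187 to 52949954), the main type II keratin of simple epithelia, had 4111, 3837 and 4370.1 CPM in NS replicates 1 to 3, 6168, 6219 and 6042 CPM with G1 and 5299, 5083 and 4813 CPM with G7. The 3 groups did not overlap, with G1 highest and NS lowest. The log2 change was 0.58 ± 0.046 (SE) with G1 (adjusted p = 2.19e-10), 0.30 ± 0.045 with G7 (adjusted p = 3.81e-05) and 0.28 ± 0.045 between G1 and G7 (adjusted p = 2.88e-05), all in the edgeR test. KRT18 (ENSG00000111057, chromosome 12, 52948871 to 52952901), its type I partner, had 2625, 2697 and 2811 CPM in NS replicates 1 to 3, 3658, 3459 and 3686 CPM with G1 and 3269, 3197 and 3173 CPM with G7. Again the groups were separate, in the same order. Its log2 change was 0.41 ± 0.039 with G1 and 0.24 ± 0.039 with G7 (adjusted p = 6.44e-09 and 7.95e-05).

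KRT19, a type I keratin whose CYFRA fragment is used as a blood tumour marker, went from 1640.3 ± 112 to 2232 ± 34.1 CPM with G1 (SD, n = 3), a log2 change of 0.44, and to 1821 ± 57.1 CPM with G7, a change of 0.15 (adjusted p = 0.0149). The G7 call ended without NS replicates 1 or 2 or G7 replicate 1 (log2 change 0.11 to 0.14, adjusted p = 0.0619 to 0.115) and with upper quartile scaling (log2 change 0.12, adjusted p = 0.0521). KRT80, a keratin of many epithelia, rose by 0.39 and 0.20. KRT7, a marker of glandular epithelium, rose by 0.18 with G1, which upper quartile scaling took below the threshold (log2 change 0.09, adjusted p = 0.0931), and had 0.05 with G7 (adjusted p = 0.42). All 5 keratins were higher with G1 than with G7, as were 23.3% of all genes tested. For KRT7 (0.12, adjusted p = 0.0264) that call ended without G1 replicates 1 or 2 or G7 replicate 2 (log2 change 0.11 to 0.13, adjusted p = 0.0605 to 0.0981), with upper quartile scaling (log2 change 0.06, adjusted p = 0.26) and without robust estimation (log2 change 0.12, adjusted p = 0.051). Per length, the summed type II keratins KRT7, KRT8 and KRT80 stood at 0.536 to 0.568 of the summed type I keratins in NS, 0.557 to 0.599 with G1 and 0.555 to 0.575 with G7, so these ranges overlapped. The ratio of KRT8 to KRT18 alone was 0.665 to 0.732 in NS and 0.766 to 0.841 with G1, without overlap, and 0.709 to 0.758 with G7, which overlapped NS.

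Beside the exon lengths, levels of KRT8 and KRT18 are uncertain in another respect. Their exons share 525 bases on opposite strands in GENCODE 29, and although the libraries were made to keep strand, per the labels' protocols, the strand setting of the counting is not given in the sources used here. Both also have many pseudogene copies, 50 named for KRT8 and 67 for KRT18. The summed counts of those copies were 0.123% to 0.193% of the counts of KRT8 and 0.188% to 0.294% of those of KRT18. Smaller overlaps on the opposite strand, with DENND1C for CRB3 and with NFATC3 for ESRP2, leave the same uncertainty for those genes.

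Other keratins near KRT8 and KRT19 fell with G1. KRT4 and KRT3, type II keratins of stratified linings, lie 82.6 and 101 kb from KRT8 on chromosome 12. KRT4 fell from 42.4 ± 1.93 to 22.6 ± 1.82 CPM with G1, a log2 change of -0.91 (adjusted p = 1.22e-10), and KRT3 fell by 1.14 (adjusted p = 2.31e-08). With G7 neither was called, at -0.01 (adjusted p = 0.926) and -0.11 (adjusted p = 0.47). KRT15, a keratin of basal cells 1.09 kb from KRT19 on chromosome 17, fell by 0.31 with G1. KRT18 lies 1.28 Mb from CBX5 on the same chromosome. Over the list of 23 stratified and other keratins, 11 were tested, with 1 higher and 4 lower with G1 and a median log2 change of -0.19. The background was 30.3% higher and 28.8% lower with G1, and 13.3% and 9.76% with G7. The edgeR test called 0 of the 11 with G7, where 2 had an unadjusted p under 0.05 and DESeq2 called 0.

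Desmosomal genes rose in part, with plakophilins and DSC2 showing the largest changes. Among 6 plaque genes, 4 rose with G1 and 3 with G7, against 30.3% and 13.3% of all genes tested. Plakophilins anchor the desmosomal cadherins to desmoplakin. PKP2 (ENSG00000057294, chromosome 12, 32790745 to 32896840) had 135, 136 and 129.6 CPM in NS replicates 1 to 3, 210.5, 203 and 214 CPM with G1 and 142, 147 and 149.9 CPM with G7. All G1 libraries lay far above the others, and the G7 libraries lay just above NS. The log2 change was 0.65 ± 0.042 with G1 (adjusted p = 8.16e-12) and 0.13 ± 0.042 with G7 (adjusted p = 0.0249).

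PKP3 (chromosome 11, 392614 to 404908) had 25.2, 23.8 and 30.3 CPM in NS replicates 1 to 3, 44.9, 45.5 and 40.2 CPM with G1 and 33.4, 34.1 and 28.9 CPM with G7. G1 stood apart, while G7 and NS overlapped, since G7 replicate 3 lay below NS replicate 3. Its log2 change was 0.71 ± 0.085 with G1 (adjusted p = 4.76e-07) and 0.27 ± 0.087 with G7 (adjusted p = 0.0297). The G7 calls of both plakophilins were fragile. That of PKP2 ended without NS replicate 3, G1 replicate 1 or G7 replicates 2 or 3 (log2 change 0.11 to 0.13, adjusted p = 0.0551 to 0.0719), with only NS and G7 in the fit (log2 change 0.13, adjusted p = 0.0578) and with upper quartile scaling (log2 change 0.11, adjusted p = 0.0672). That of PKP3 ended without NS replicates 1 or 2, G1 replicate 1 or G7 replicates 1 or 2 (log2 change 0.20 to 0.26, adjusted p = 0.0607 to 0.151) and with upper quartile scaling (log2 change 0.24, adjusted p = 0.057).

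DSC2, a desmosomal cadherin, had the largest difference between the hairpins of the 35 genes. DSC2 (ENSG00000134755, chromosome 18, 31058840 to 31102522) had 30.8, 31.4 and 27.4 CPM in NS replicates 1 to 3, 47.8, 47.2 and 46.4 CPM with G1 and 25.3, 28.6 and 25.2 CPM with G7. Every G1 library was far above the other 6, and NS and G7 overlapped. DSC2 rose by 0.66 ± 0.067 with G1 (adjusted p = 1.73e-08) and was higher with G1 than with G7 by 0.84 ± 0.066 (adjusted p = 6.63e-10). The change with G7, -0.18, missed the threshold (adjusted p = 0.0666), but was called without NS replicate 3 or G7 replicate 2 (log2 change -0.24, adjusted p = 0.0232 to 0.0312), with upper quartile scaling (log2 change -0.21, adjusted p = 0.0332) and without mitochondrially encoded genes (log2 change -0.19, adjusted p = 0.0486). The cadherin DSG2, 396 kb away in the same cluster on chromosome 18, had 81.4, 88.5 and 81.0 CPM in NS replicates 1 to 3, 85.8, 87.8 and 88.0 CPM with G1 and 83.1, 81.8 and 81.1 CPM with G7. The NS libraries overlapped with those of both hairpins, with log2 changes of 0.06 and -0.03 (adjusted p = 0.295 and 0.72). DSC3, on the other side of DSC2, had 0.440 ± 0.122, 0.133 ± 0.0758 and 0.351 ± 0.100 CPM.

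DSP, which ties the plaque to keratin, rose from 607 ± 28.1 to 702 ± 24.4 CPM with G1, a log2 change of 0.21 (adjusted p = 0.000218). With G7 it had 575 ± 25.4 CPM, a change of -0.08 that was not called (adjusted p = 0.207) but was called without G7 replicate 3 (log2 change -0.11, adjusted p = 0.0495). JUP, the most abundant plaque gene per length, had 309.7, 315 and 351 CPM in NS replicates 1 to 3, 377, 343 and 367 CPM with G1 and 331, 321 and 355 CPM with G7. The NS and G1 libraries overlapped through NS replicate 3. Its log2 change of 0.15 with G1 (adjusted p = 0.0116) lost its call without NS replicates 1 or 2 or G1 replicate 1 (log2 change 0.12 to 0.13, adjusted p = 0.0544 to 0.0769) and with upper quartile scaling (log2 change 0.07, adjusted p = 0.286). PPL, which encodes the plakin periplakin, rose with G7 by 0.17 (adjusted p = 0.00347) and had 0.05 with G1 (adjusted p = 0.249), where it was called without NS replicate 3 (log2 change 0.10, adjusted p = 0.0373). The related plakin gene EVPL had 0.09 and 0.09 (adjusted p = 0.243 and 0.325), and both became calls without NS replicate 3 (0.18 and 0.18, adjusted p = 0.0195 and 0.0404). PERP, another desmosomal gene and the only tested one of 6 listed, rose by 0.22 with G1 and had 0.05 with G7 (adjusted p = 0.502).

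**Figure D3:**
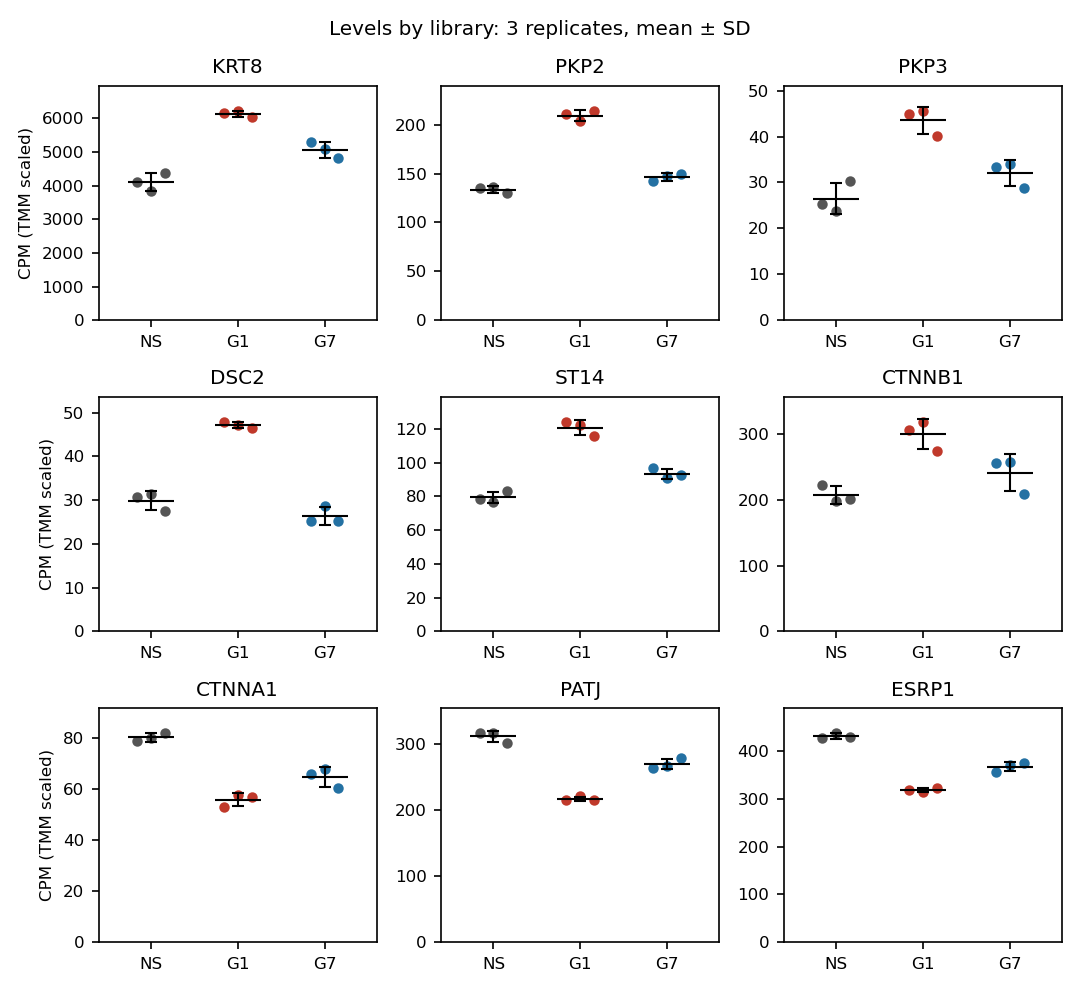
CPM in each library for 9 genes, with 3 points per group, the mean as a horizontal mark and the SD as the bar; all axes start at 0. KRT8, PKP2, PKP3, DSC2 and ST14 are highest with G1, CTNNA1, PATJ and ESRP1 are lowest with G1, and G7 replicate 3 of CTNNB1 lies with the control libraries.

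The catenins of the adherens junction moved apart, and E-cadherin had a smaller change. CDH1 (chromosome 16, 68737225 to 68835548) had 351 ± 11.4 CPM in NS, 385 ± 7.46 with G1 and 344 ± 7.56 with G7. It rose by 0.13 ± 0.038 with G1 (adjusted p = 0.0046), a call that ended with upper quartile scaling (log2 change 0.05, adjusted p = 0.282), and had -0.03 with G7 (adjusted p = 0.635). CTNNA1 (ENSG00000044115, chromosome 5, 138610967 to 138935034), whose product links the cadherin complex to actin, had 78.8, 80.2 and 82.1 CPM in NS replicates 1 to 3, 53.1, 57.8 and 57.2 CPM with G1 and 66.0, 67.9 and 60.6 CPM with G7. The groups did not overlap and G1 was lowest. CTNNA1 fell with G1 by 0.52 on the log2 scale (adjusted p = 2.87e-08) and with G7 by 0.31 (adjusted p = 0.000174). Its difference between the hairpins, -0.21 (adjusted p = 0.00334), lost its call without G1 replicate 1 (log2 change -0.16, adjusted p = 0.0525).

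Beta-catenin, the catenin that also acts in Wnt signalling, went the other way. CTNNB1 (ENSG00000168036, chromosome 3, 41194741 to 41260096) had 223, 198 and 201 CPM in NS replicates 1 to 3, 306, 319 and 275 CPM with G1 and 257, 259 and 209 CPM with G7. All G1 libraries were above NS, whereas G7 replicate 3 lay among the NS libraries and G7 replicates 1 and 2 lay above them. CTNNB1 rose with G1 by 0.54 ± 0.091 (adjusted p = 0.000786). With G7 the change of 0.22 ± 0.091 was not called (adjusted p = 0.12), but was called without G7 replicate 3 (log2 change 0.32, adjusted p = 7.62e-05), without robust estimation (log2 change 0.22, adjusted p = 0.0314), without the low count filter (log2 change 0.22, adjusted p = 0.000437) and by DESeq2 (log2 change 0.22, adjusted p = 0.0171). CTNND1, the catenin that stabilises E-cadherin at the membrane, had 585, 611 and 586 CPM in NS replicates 1 to 3, 589, 585 and 593 CPM with G1 and 584, 593 and 592 CPM with G7. Its 3 groups overlapped, with log2 changes of -0.01 and -0.01 (adjusted p = 0.782 and 0.873); with upper quartile scaling it was called lower with G1 (log2 change -0.10, adjusted p = 0.0177). Relative to CDH1 and per length, CTNNA1 stood at 0.154 to 0.169 in NS, 0.0947 to 0.107 with G1 and 0.121 to 0.142 with G7. CTNNB1 relative to CDH1 stood at 0.282 to 0.329, 0.368 to 0.437 and 0.309 to 0.399. Only the first of these ratios separated all 3 groups.

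Of 17 further adherens junction genes, 14 were tested, 4 were higher and 4 lower with G1 (median 0.07), and 5 were higher and 1 lower with G7 (median 0.02). The background was 30.3% higher and 28.8% lower with G1 and 13.3% and 9.76% with G7, so the G1 counts lie near it. The nectin gene NECTIN1, whose product starts contacts between cells, went from 10.5 ± 1.17 to 18.3 ± 0.891 CPM with G1 and 14.7 ± 0.732 with G7, log2 changes of 0.79 and 0.48 (adjusted p = 1.36e-07 and 0.000688). The actin crosslinkers ACTN4 (0.48 and 0.28) and ACTN1 (0.22 and 0.27) also rose with both. PLEKHA7, which binds p120 catenin at the junction belt, fell by 0.58 with G1 and by 0.24 with G7, and the G7 call (adjusted p = 0.0303) ended without NS replicates 2 or 3 or G7 replicates 1 or 2 (log2 change -0.24 to -0.17, adjusted p = 0.0776 to 0.166).

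Of the 11 tested tight junction genes, 5 rose and 1 fell with G1, and 1 rose with G7. Over all genes tested, 59.0% were called with G1 and 23.0% with G7, so the share of tight junction genes called was not above the background in either comparison. The claudins, which set how tight and how ion-selective the seal is, moved in different directions. CLDN4, a sealing claudin, had 191, 182 and 205 CPM in NS replicates 1 to 3, 239, 249 and 219 CPM with G1 and 233, 220.5 and 188 CPM with G7. All G1 libraries were above NS, and G7 replicate 3 lay within the NS range while replicates 1 and 2 lay above it. It rose with G1 by 0.29 (adjusted p = 0.00745), and its G7 change of 0.15 (adjusted p = 0.203) was called without G7 replicate 3 (log2 change 0.24, adjusted p = 0.000793) and without the low count filter (log2 change 0.15, adjusted p = 0.014). CLDN1, a barrier claudin, had 36.6, 38.1 and 34.7 CPM in NS replicates 1 to 3, 30.5, 31.7 and 32.4 CPM with G1 and 37.8, 42.1 and 44.7 CPM with G7. Every G1 library was below every other library, and NS and G7 overlapped. CLDN1 fell by 0.21 with G1 (adjusted p = 0.0139) and was higher with G7 by 0.19 (adjusted p = 0.0466). The difference between the hairpins was -0.40 ± 0.067 (adjusted p = 4.54e-05).

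Neither CLDN1 call against NS was firm. The G1 call ended without NS replicate 2 or G1 replicate 1 (log2 change -0.18 to -0.17, adjusted p = 0.0616 to 0.0667) and in DESeq2 (log2 change -0.19, adjusted p = 0.0558). The G7 call ended without NS replicates 1 or 3, G1 replicates 1, 2 or 3 or G7 replicates 2 or 3 (log2 change 0.13 to 0.19, adjusted p = 0.0504 to 0.176), with RLE or upper quartile scaling (adjusted p = 0.0547 and 0.0887), with only NS and G7 in the fit (adjusted p = 0.08), without mitochondrially encoded genes (adjusted p = 0.0617) and in DESeq2 (adjusted p = 0.0908). CLDN3 and CLDN7 were not called against NS, at -0.13 and 0.13 with G1 and 0.09 and -0.05 with G7 (adjusted p from 0.156 to 0.701). With G1, upper quartile scaling called CLDN3 lower (log2 change -0.22, adjusted p = 0.0467), and dropping the low count filter called CLDN7 higher (log2 change 0.16, adjusted p = 0.0229). Between G1 and G7, CLDN3 had a difference of -0.22 (adjusted p = 0.0446), a call that ended without NS replicate 1, G1 replicates 1, 2 or 3 or G7 replicates 1 or 3 (log2 change -0.22 to -0.18, adjusted p = 0.0521 to 0.149), with RLE scaling, without the low count filter and in DESeq2 (adjusted p = 0.0514, 0.151 and 0.177). It lies 29.3 kb from CLDN4 on chromosome 7. Of 14 other claudins, 6 were tested, with 2 higher and 2 lower with G1 (median -0.42), near the background of 30.3% and 28.8%. With G7 the edgeR test called 0 of the 6, with 2 at an unadjusted p under 0.05 and 0 called by DESeq2. The background with G7 was 13.3% higher and 9.76% lower. CLDN9 rose with G1 by 0.30 (adjusted p = 0.0161), a call that ended without NS replicate 2 or G1 replicate 2 (log2 change 0.22 to 0.26, adjusted p = 0.067 to 0.0924) and with upper quartile scaling (log2 change 0.21, adjusted p = 0.0854).

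Of the 4 other tight junction membrane genes, 2 rose with G1, and of the 3 scaffolds, 2 rose, against 30.3% of all genes tested. OCLN and MARVELD2, which encode occludin and the protein of three-cell contacts tricellulin, lie 48.0 kb apart on chromosome 5. OCLN rose with G1 by 0.17 ± 0.048 (adjusted p = 0.00531) and MARVELD2 by 0.15 ± 0.06 (adjusted p = 0.0373). With upper quartile scaling neither was called (log2 change 0.08, adjusted p = 0.151 for OCLN; log2 change 0.06, adjusted p = 0.381 for MARVELD2). The MARVELD2 call also ended without NS replicates 1, 2 or 3 or G1 replicates 1 or 3 (log2 change 0.12 to 0.16, adjusted p = 0.0552 to 0.151) and in DESeq2 (log2 change 0.17, adjusted p = 0.0537). F11R, which encodes the adhesion molecule JAM-A, was the most abundant of these 4 genes per length and had 162, 151 and 149 CPM in NS replicates 1 to 3, 159, 171 and 159 CPM with G1 and 158, 157 and 147 CPM with G7. It shares 1853 exon bases with AL591806.3 on the same strand, a gene with few counts. Its groups overlapped against NS (adjusted p = 0.127 and 0.998; called with G1 without the low count filter, log2 change 0.11, adjusted p = 0.0426). MARVELD3 had 0.17 and 0.04 (adjusted p = 0.136 and 0.801). It shares 1068 exon bases with PHLPP2 on the opposite strand, so its count is uncertain.

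Of the scaffolds, TJP1, which encodes ZO-1, rose from 139 ± 6.97 to 173 ± 6.48 CPM with G1, a log2 change of 0.32 (adjusted p = 8.39e-05), and cingulin (CGN) rose by 0.22 (adjusted p = 0.00141). TJP3, which encodes ZO-3, was the most abundant scaffold per length and had 56.5, 59.8 and 61.6 CPM in NS replicates 1 to 3, 62.5, 59.6 and 59.0 CPM with G1 and 63.2, 58.9 and 61.5 CPM with G7. Those libraries overlapped, with log2 changes of 0.02 and 0.05 (adjusted p = 0.717 and 0.586). With G7 the edgeR test called 0 of the 7 occludin-type, JAM and scaffold genes, 0 had an unadjusted p under 0.05, and DESeq2 called 0. From a list of 24 other tight junction and polarity genes, 18 were tested, with 5 higher and 4 lower with G1 (median 0.05) and 1 higher and 2 lower with G7. The background was 30.3% and 28.8% with G1 and 13.3% and 9.76% with G7. The polarity gene SCRIB rose by 0.52 with G1 (adjusted p = 4.47e-05) and had 0.21 with G7 (adjusted p = 0.0727), where it was called without NS replicate 3 or G7 replicate 3 (log2 change 0.28 to 0.31, adjusted p = 0.00317 to 0.00567) and by DESeq2 (log2 change 0.21, adjusted p = 0.0403). MAGI3, a scaffold gene, fell by 0.19 and 0.24.

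Of the 3 apical polarity genes, 2 fell with G1, against 28.8% of all genes tested. The Crumbs complex, in which CRB3 recruits the scaffold PATJ through a linker protein, marks the apical side together with the PAR complex of PARD6B. PATJ (ENSG00000132849, chromosome 1, 61742406 to 62178675) had 316, 316 and 301 CPM in NS replicates 1 to 3, 214, 221 and 215 CPM with G1 and 264, 267 and 278 CPM with G7. NS, G7 and G1 formed 3 separate steps downward. PATJ fell by 0.52 with G1 (adjusted p = 1.03e-10), by 0.21 with G7 (adjusted p = 0.000443) and differed between G1 and G7 by -0.32 ± 0.039 (adjusted p = 6.87e-07). PARD6B fell with G1 by 0.24 (adjusted p = 0.00235) and had 0.04 with G7 (adjusted p = 0.658). CRB3, at 6.62 ± 0.994 CPM in NS, rose with G1 by 0.37 ± 0.13 (adjusted p = 0.0187), and that call ended without NS replicates 1 or 2 or G1 replicates 1 or 2 (log2 change 0.28 to 0.33, adjusted p = 0.0644 to 0.0976) and with upper quartile scaling (log2 change 0.28, adjusted p = 0.072). With G7 its change was 0.09 (adjusted p = 0.697).

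The upstream sequences of 6 junction genes are shown as examples of stretches that hold a motif of epithelial regulators, and were chosen after the matches and the changes of these genes were known. PATJ fell with both hairpins, DSC2, DSP, TJP1 and CGN rose with G1, and DSG2 was not called with either. They come from the RefSeq promoter table (GRCh38.p14), which matched 21 of the 38 genes, and cover the 250 bases before the RefSeq start nearest to the GENCODE gene start, without bases that GENCODE places in the gene's own exons. Capitals mark CACCTG on either strand, the E-box that Snail and ZEB repressors are known to bind, and AACCNGTT on either strand, the motif of grainyhead factors; the 2 motifs did not overlap in these stretches.
PATJ (chr1:61742230-61742405, plus strand): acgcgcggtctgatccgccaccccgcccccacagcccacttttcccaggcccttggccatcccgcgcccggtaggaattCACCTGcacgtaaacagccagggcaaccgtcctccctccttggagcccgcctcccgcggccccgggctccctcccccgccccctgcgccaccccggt
DSC2 (chr18:31102523-31102671, minus strand): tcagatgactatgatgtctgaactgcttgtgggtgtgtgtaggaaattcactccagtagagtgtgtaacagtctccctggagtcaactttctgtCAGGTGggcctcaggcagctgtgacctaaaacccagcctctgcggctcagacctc
DSG2 (chr18:31497927-31498042, plus strand): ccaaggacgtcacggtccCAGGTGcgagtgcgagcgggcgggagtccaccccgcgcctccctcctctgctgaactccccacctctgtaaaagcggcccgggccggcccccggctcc
DSP (chr6:7541421-7541574, plus strand): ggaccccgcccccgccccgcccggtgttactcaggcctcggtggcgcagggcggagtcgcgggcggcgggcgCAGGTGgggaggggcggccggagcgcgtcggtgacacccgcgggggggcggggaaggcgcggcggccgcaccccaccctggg
TJP1 (chr15:29969050-29969299, minus strand): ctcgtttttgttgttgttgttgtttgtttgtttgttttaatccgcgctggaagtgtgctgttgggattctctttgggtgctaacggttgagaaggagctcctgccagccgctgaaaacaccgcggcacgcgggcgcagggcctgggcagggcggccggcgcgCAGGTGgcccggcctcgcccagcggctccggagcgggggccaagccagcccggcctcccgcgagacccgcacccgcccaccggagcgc
CGN (chr1:151511137-151511386, plus strand): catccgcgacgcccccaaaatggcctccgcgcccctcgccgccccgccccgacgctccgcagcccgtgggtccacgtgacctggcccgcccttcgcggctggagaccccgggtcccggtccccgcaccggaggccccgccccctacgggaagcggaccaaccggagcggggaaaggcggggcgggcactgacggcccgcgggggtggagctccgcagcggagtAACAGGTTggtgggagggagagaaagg

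The E-box stood in the first 5 of these, at -171 in PATJ, -156 in DSC2, -232 in DSG2, -178 in DSP and -88 in TJP1, counted back from the RefSeq start to the motif's first base. It was present upstream of genes that fell, rose or were not called. These genes were chosen with matches and changes known, so this shows nothing about direction. The capitals in CGN are the grainyhead motif, at -27. This CGN stretch lies inside the gene as GENCODE places it, with a start at 151510510, so it is upstream of the RefSeq start only. Over the full 250-base windows, 10 of the 21 matched genes had an E-box in at least 1 window. By window, this was 11 of 33 (33.3%), against 17.5% of all 35116 windows of the table. Several genes have more than 1 window, so windows are not independent. The grainyhead motif was found in 1 of the 33 windows and in 1.49% of all. A match is a description of the letters and shows no binding. GC content ran from 51.7% in DSC2 to 83.8% in DSP, and DSC2 had 1 CpG in 149 bases where DSP had 24 in 154.

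The genes of factors known to act on such motifs were also measured. Of 8 repressors of epithelial genes, 4 were tested. SNAI1, which encodes Snail, rose from 2.92 ± 0.248 to 4.33 ± 0.483 CPM with G1, a log2 change of 0.56 (adjusted p = 0.00446), and had -0.06 with G7 (adjusted p = 0.858). Its level was low throughout, and ZEB1 and ZEB2 were below the filter. With G7 the edgeR test called 0 of the 4, 0 had an unadjusted p under 0.05 and DESeq2 called 0, although TWIST2, at 0.18 (adjusted p = 0.164), was called without G7 replicate 3 (log2 change 0.26, adjusted p = 0.04). Of 11 epithelial transcription factor genes, all tested, 3 were higher and 4 lower with G1 (median -0.02), and 2 were higher and 1 lower with G7. The background was 30.3% and 28.8% with G1 and 13.3% and 9.76% with G7, so these counts lie near it. The grainyhead gene GRHL3 rose from 7.14 ± 1.41 to 13.0 ± 0.671 CPM with G1 and 10.5 ± 0.747 with G7, log2 changes of 0.85 and 0.55. ELF3, an epithelial ETS factor gene, fell by 0.64 with G1 (adjusted p = 3.94e-09), and KLF4 fell by 0.63 with G1 and 0.28 with G7.

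ESRP1 and ESRP2 encode RNA-binding proteins that set epithelial splice forms. ESRP1 (ENSG00000104413, chromosome 8, 94641074 to 94707466) had 427, 437 and 429 CPM in NS replicates 1 to 3, 319, 313 and 323 CPM with G1 and 355, 371 and 374 CPM with G7. The groups formed separate steps, with G1 lowest. ESRP1 fell by 0.44 with G1 (adjusted p = 8.51e-10) and by 0.23 with G7 (adjusted p = 7.38e-05). ESRP2 fell with G7 by 0.17 (adjusted p = 0.0276), a call that ended without NS replicates 1 or 3 or G7 replicate 2 (log2 change -0.16 to -0.13, adjusted p = 0.0733 to 0.139) and in DESeq2 (log2 change -0.16, adjusted p = 0.0602). With G1 it had -0.12 (adjusted p = 0.0705) and was called with upper quartile scaling (log2 change -0.20, adjusted p = 0.00285). Per length, ESRP2 stood at 0.121 to 0.129 of ESRP1 in NS, 0.155 to 0.162 with G1 and 0.124 to 0.140 with G7. Counts per gene do not show which splice forms were made.

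EPCAM, an adhesion molecule of simple epithelia, had 313, 292 and 285 CPM in NS replicates 1 to 3, 346, 367 and 369.9 CPM with G1 and 303, 318 and 313 CPM with G7. The G1 libraries were above all others, and NS and G7 overlapped. EPCAM rose with G1 by 0.28 ± 0.042 (adjusted p = 4.54e-06) and had 0.07 with G7 (adjusted p = 0.25). ST14 (ENSG00000149418, chromosome 11, 130159562 to 130210376) encodes matriptase, a membrane serine protease that acts on epithelial surface proteins, EPCAM among them. It had 78.2, 76.5 and 83.3 CPM in NS replicates 1 to 3, 124, 123 and 116 CPM with G1 and 96.8, 91.1 and 92.7 CPM with G7. The 3 groups were separate, with G1 highest. ST14 rose by 0.60 ± 0.049 with G1 (adjusted p = 3.96e-10) and by 0.24 ± 0.049 with G7 (adjusted p = 0.00117).

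Membrane serine proteases and their inhibitors were read beside ST14. Of 6 listed, 5 were tested and 4 fell with G1, with a median log2 change of -0.46 against -0.01 over all genes. The share of all genes tested that fell with G1 was 28.8%. SPINT1, the gene of the matriptase inhibitor HAI-1, went from 156 ± 9.43 to 122 ± 4.56 CPM with G1, which is -0.36 on the log2 scale (adjusted p = 2.87e-06). PRSS8, which encodes the protease prostasin, changed by -0.46 (adjusted p = 8.63e-07). TMPRSS4 went from 178 ± 5.92 to 77.2 ± 3.95 CPM, a change of -1.21 (adjusted p = 1.46e-15). With G7 these 3 had -0.04, -0.07 and -0.12 (adjusted p = 0.654, 0.403 and 0.0552), and TMPRSS4 was called without G7 replicate 3 (log2 change -0.15, adjusted p = 0.0192) and with RLE or upper quartile scaling (adjusted p = 0.0467 and 0.0216). TMPRSS2 fell with both, by 1.23 and 0.47.

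Genes outside the cell-cell junctions were read beside these. Hemidesmosomes anchor keratin to the basement membrane. Of 9 tested hemidesmosome genes, 2 were higher and 3 lower with G1 (median 0.06). The background for this and the following lists was 30.3% higher and 28.8% lower with G1, and 13.3% and 9.76% with G7. The integrin gene ITGA6 rose by 0.37 and its partner ITGB4 fell by 0.42, as did the laminin gene LAMB3 by 0.44. With G7 the edgeR test called 0 of the 9, with 2 at an unadjusted p under 0.05 and 0 called by DESeq2; ITGB4, at -0.13 (adjusted p = 0.109), was called without NS replicate 2 or G7 replicate 1 (log2 change -0.18 to -0.17, adjusted p = 0.0282 to 0.039). Of 16 mesenchymal genes, 5 were tested, and all 4 called with G1 were lower (median -0.49). With G7, 0 were called higher and 1 lower (median -0.21). S100A4 fell by 0.49 with G1 but had 0.24 with G7 (adjusted p = 0.209 in the edgeR test). That rise was called without G7 replicate 3 (log2 change 0.35, adjusted p = 0.0194) and without the low count filter (log2 change 0.24, adjusted p = 0.0472). FN1 fell from 864 ± 12.7 to 615 ± 14.0 CPM with G1 and 716 ± 26.1 with G7, log2 changes of -0.49 and -0.27. Of the leukocyte markers, 4 were tested and both called with G1 were lower, CD14 by -1.18; of the endothelial markers, PECAM1 had -0.40 and CDH5 0.32 with G1. With G7 the edgeR test called 0 of those 6 markers, 1 had an unadjusted p under 0.05 and DESeq2 called 0.

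**Figure D4:**
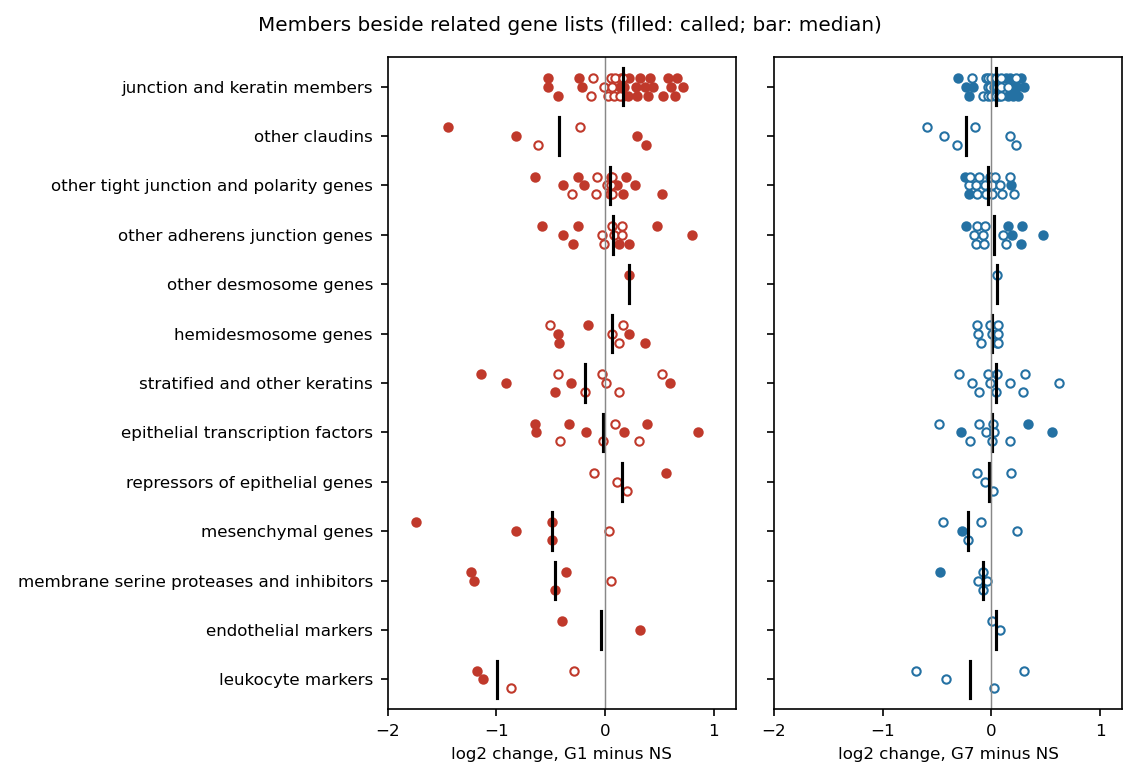
Log2 change against NS of each tested gene in the junction and keratin set and in 12 related lists, with G1 on the left and G7 on the right; filled points were called and the bar is the list's median. The junction and keratin median lies at 0.17 with G1 and 0.04 with G7. The medians of the mesenchymal, membrane protease, leukocyte and other claudin lists lie below 0 with both.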

How the data were processed

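Poly-A RNA from 9 HCC827 libraries was sequenced with strand kept, per the labels' protocols. The deposited table holds whole counts per Ensembl gene, made by the authors with TopHat2 2.1.0 and HTSeq 0.6.0 on GRCh38, per the submitters' processing notes; their annotation release and strand setting were not given in the sources used here. Symbols, coordinates and merged exon lengths came from GENCODE 29 (GRCh38), which held 57055 of the 60675 identifiers; the others took 0.025% of counts. At totals of 12701561 to 22372353 counts, 3 counts equal 0.139 to 0.227 CPM. Replicate pairs within a group differed by more than sampling noise (chi-square per degree of freedom from 1.51 to 24.7), so each library counted as 1 replicate.

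All 9 libraries entered 1 fit in R 4.3.3 with edgeR 4.0.16 (low count filter by group, TMM scaling, robust quasi-likelihood), with 1 mean per group and Benjamini-Hochberg adjustment over 13264 genes; tests are two-sided. DESeq2 1.42.0 was an alternative. Scripts were tested on simulated data. The members and lists were chosen with earlier results of these data known. The text gives per-library values for genes called with an absolute log2 change of at least 0.5 in any comparison and for the highest gene per length of each role, as well as for CLDN1, chosen after its values were seen, and names up to 4 genes of each related list by smallest p among those with a mean of at least 2 CPM; a gene of the tight junction list is not reported here. Upstream sequences are from RefSeq (GRCh38.p14).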

Additional observations from a re-analysis of the deposited data

Results flagged for a closer look

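For 8 of the 35 tested genes the fitted change had opposite signs with the hairpins and the difference between the hairpins itself passed the edgeR test. The share of all genes with this pattern was not counted, so the 8 are not shown to be particular to this set. Of all genes tested, 45.1% were called between the hairpins. DSC2 had the widest gap: its log2 change against NS was 0.66 with G1 and -0.18 with G7, and G1 exceeded G7 by 0.84 (adjusted p = 6.63e-10). DSP had 0.21 with G1 and -0.08 with G7, a difference of 0.29 (adjusted p = 8.83e-06). CDH1 had 0.13 with G1 and -0.03 with G7, a difference of 0.16 (adjusted p = 0.00124). OCLN had 0.17 with G1 and -0.01 with G7 and MARVELD2 0.15 with G1 and -0.04 with G7, with differences of 0.17 and 0.18 (adjusted p = 0.0046 and 0.013). The MARVELD2 difference lost its call without G1 replicate 3 or G7 replicate 1 (log2 change 0.14 to 0.15, adjusted p = 0.0761 to 0.0919) and with upper quartile scaling (log2 change 0.13, adjusted p = 0.0827).

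In 3 genes the sign was the other way round, lower with G1 and higher with G7. CLDN1 had -0.21 with G1 and 0.19 with G7, a difference of -0.40 (adjusted p = 4.54e-05). PARD6B had -0.24 with G1 and 0.04 with G7, a difference of -0.28 (adjusted p = 0.0006). CLDN3 had -0.13 with G1 and 0.09 with G7, a difference of -0.22 (adjusted p = 0.0446) that was lost without NS replicate 1, G1 replicates 1, 2 or 3 or G7 replicates 1 or 3 (log2 change -0.22 to -0.18, adjusted p = 0.0521 to 0.149), with RLE scaling (log2 change -0.21, adjusted p = 0.0514), without the low count filter (log2 change -0.19, adjusted p = 0.151) and in DESeq2 (log2 change -0.20, adjusted p = 0.177). Only CLDN1 was called against NS with both hairpins, so for the other 7 at least 1 of the signs rests on a change that did not pass the test.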

How the results depend on the processing

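The alternatives covered scaling, the low count filter, the tool, the groups in the fit, mitochondrially encoded genes, a 1.2-fold threshold, robust estimation, the replicate block and each library left out. Over 18 of them, 3742 of 3996 values of single genes kept their side of the threshold. A further 190 lost a call, 64 gained one and 0 called changes reversed. Changes that were called in neither setting could switch sign and still count among the 3742. Upper quartile scaling gave 8 lower with G1 and 5 higher with G7, in place of 5 and 9. With glmTreat against a 1.2-fold change, 9 were higher and 3 lower with G1, 0 and 0 with G7 (0 at an unadjusted p under 0.05), and 4 and 0 between the hairpins (4 and 2 at an unadjusted p under 0.05). The same threshold cut the calls over all genes to 1988 higher and 2129 lower with G1, 175 and 138 with G7, and 951 and 1076 between the hairpins. Leaving out each library in turn gave 17 to 21 higher and 4 to 5 lower with G1, 6 to 9 and 3 to 5 with G7, and 16 to 18 and 4 to 7 between the hairpins. The edgeR fit without robust estimation was chosen after the data had been seen.

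The titles number the replicates 1 to 3 in each group. Deviations from the group means of libraries sharing a number correlated by -0.0763 to 0.199 across genes, not above 0.1 in every pair, so the numbers were not taken as a pairing. With the replicate block, 20 genes were higher and 5 lower with G1, 10 and 4 with G7, and 19 and 6 between the hairpins. The block made calls of CTNNB1 with G7 (log2 change 0.22, adjusted p = 0.00341) and of CLDN7 and JUP between the hairpins (adjusted p = 0.049 and 0.0312), and ended that of CLDN3 between the hairpins (adjusted p = 0.0519).

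Depth limits DSC3, CLDN2 and CLDN12, which were too low to test, and CRB3 and MARVELD3, the lowest of the 35 by CPM in NS, have the widest standard errors with G1.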
